A study of Aspergillus niger with 11 samples.

Results

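The late oxygen-limited phase of an Aspergillus niger fed-batch fermentation was set against the exponential phase that came before it. The comparison took the 5 RNA sequencing libraries whose labels name one of these phases, out of 11 libraries in all, with 2 libraries of the late limited phase (66 h) and 3 of the exponential phase (18 h). The other 6 libraries, 3 of the early limited phase (24 h) and 3 of the middle limited phase (42 h), entered the same fit to estimate the spread between replicates. All libraries came from strain DS03043, grown in a 5 L fermenter at 34 °C and pH 4.5 with stirring at 375 rpm, an aeration of 1 vvm (volumes of air per volume of broth and minute) and 0.05 MPa of overpressure. Every library carries the same note of a fermentation under oxygen limitation, the exponential phase included. Since sampling times are listed in the labels without saying which library each belongs to, times and phases were paired in chronological order. A culture with ample oxygen at the later times was not analysed here, so oxygen supply, culture age and growth phase cannot be told apart. Whether replicates came from separate cultures is not stated, so the p-values speak only of the spread among these samples, and that spread may be technical.

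Aspergillus niger is a filamentous fungus that feeds by secreting enzymes into its surroundings, and industrial strains are grown for glucoamylase, the enzyme that releases glucose from starch. Secreted proteins fold in the endoplasmic reticulum with the help of chaperones such as BiP before they leave the cell. When oxygen runs short, respiration slows, growth becomes limited by the oxygen supply, and carbon can be diverted into organic acids and polyols.

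Levels are given as the FPKM that the authors deposited, that is, fragments per kilobase of transcript scaled to the mapped total of the library. The values were coarse at low levels. The FPKM that 1 read is worth was recovered for 7614 genes, and over these a library held 22848 and 22219 reads at 66 h, against 19383, 17649 and 17183 reads at 18 h. The median worth of 1 read was 8.45 and 8.92 FPKM at 66 h, against 11.08, 11.9 and 12.48 FPKM at 18 h. The 66 h libraries were therefore the deeper ones, and counts are given both over all genes tested and over genes with a mean of at least 30 FPKM. Across the 2933 genes at that level, the log2(FPKM + 1) values of both 66 h libraries correlated at a Pearson r of 0.739 and those of the 18 h libraries at 0.675 to 0.714, against 0.458 to 0.497 between the times. These correlations are across genes, which are not independent replicates. Only 102 of 10445 genes carried a symbol, and the others are named by locus with no role given.

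Between 66 h and 18 h, 525 of 8693 genes tested changed, or 6.04%, with 253 higher (2.91%) and 272 lower (3.13%) at 66 h. The threshold for a call was an adjusted p of 0.05 (limma on log2(FPKM + 1), Benjamini-Hochberg over all genes tested). Among genes with a mean of at least 30 FPKM, 433 of 2933 changed, or 14.8%, with 192 higher (6.55%) and 241 lower (8.22%) at 66 h. Of these 192 rises, 12 were under 2-fold, 67 were 2- to 4-fold, 69 were 4- to 16-fold and 44 were 16-fold or more. Of the 241 falls, 34 were under 2-fold, 78 were 2- to 4-fold, 74 were 4- to 16-fold and 55 were 16-fold or more. Fold changes are 66 h over 18 h on the log2(FPKM + 1) scale, and this scale shrinks the fold of genes at low levels. In all 525 genes called, the 66 h libraries lay wholly above or wholly below the 18 h libraries, while 30.6% of all genes tested, and 53.4% of those with a mean of at least 30 FPKM, had no overlap. The number of calls rested on having both 66 h libraries: 220 genes were called without 66 h replicate 1 (68 higher, 152 lower) and 249 without replicate 2 (70 higher, 179 lower), where the lone library is assumed to vary like the other groups. When libraries were scaled to equal FPKM sums, the split turned to 288 higher and 219 lower.

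**Figure D1:**
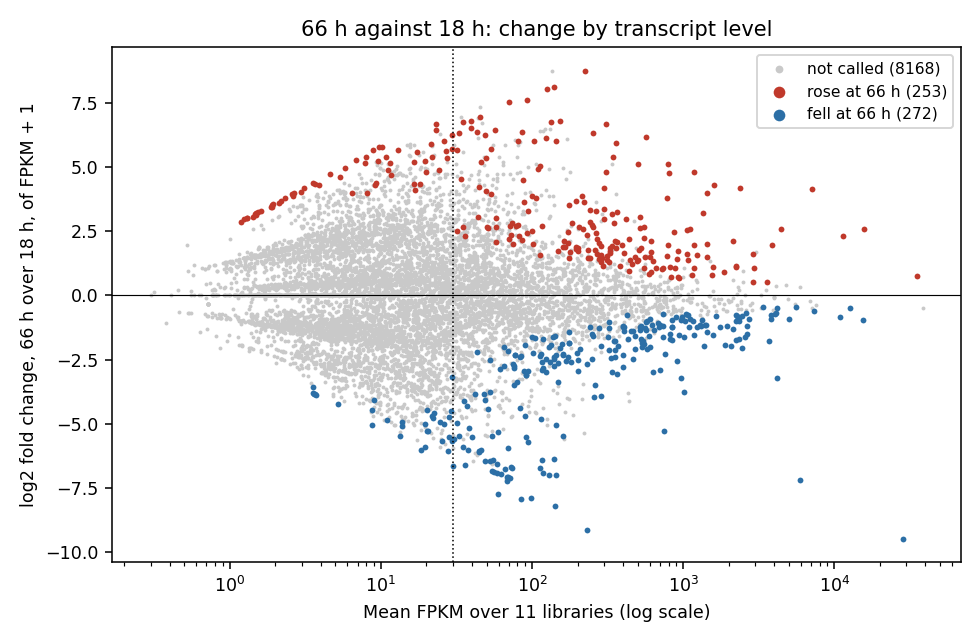
Each point is 1 of the 8693 genes tested, with its mean FPKM over 11 libraries on the x axis (log scale) and its log2 fold change of FPKM + 1, 66 h over 18 h, on the y axis. Red genes rose (253) and blue genes fell (272) at 66 h, the dotted line marks 30 FPKM, and calls at small fold changes appear only toward the right, among abundant genes.

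The genes called made up a large part of the messenger RNA measured. The 253 rises took 29.6% and 27.5% of the FPKM sum in the 66 h libraries, against 7.9%, 8.2% and 7.1% in the 18 h libraries. The 272 falls took 12.4% and 12.7% at 66 h, against 33.6%, 34.1% and 33.2% at 18 h. These shares describe genes chosen by the same contrast and are not a test. In bulk RNA, fewer cells that express a gene and less RNA per cell cannot be told apart.

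The share of genes called climbed with the level. It was 1.33% of 3547 genes under 10 FPKM, 2.03% of 2213 genes at 10 to 30, 6.74% of 1603 genes at 30 to 100, 14.9% of 758 genes at 100 to 300, 31.1% of 408 genes at 300 to 1000 and 51.8% of 164 genes at 1000 FPKM or more. The standard error of a log2 fold change had a median of 1.48 in the lowest of these classes and 0.18 in the highest. In the highest class, 31 genes rose and 54 fell. Under 30 FPKM, 61 genes rose and 31 fell, and these calls stood on few reads. All 61 of these rises had 0 reads in every 18 h library, and 35 had at most 2 reads in each 66 h library. Among them, 18 genes had 1 read in each 66 h library and 0 in the other 9 libraries.

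Abundant genes that changed at least 8-fold were drawn out after their values had been seen. With a mean of at least 1000 FPKM at one of the times, 11 genes rose and 6 genes fell by that measure. The most abundant of the rises was An07g05770, with 16214 and 14452 FPKM at 66 h, against 1143, 1133 and 523 FPKM at 18 h. Both 66 h libraries lay far above the 18 h libraries, among which replicate 3 was the lowest. The log2 fold change of An07g05770 was 4.12 ± 0.39 (SE; limma, Benjamini-Hochberg adjusted p = 0.00023). An07g08810 had 7177 and 6379 FPKM at 66 h, against 463, 374 and 298 FPKM at 18 h, and rose by a log2 fold change of 4.18 ± 0.56 (SE; limma adjusted p = 0.0016). An18g04350 had 3755 and 3568 FPKM at 66 h, against 153, 186 and 219 FPKM at 18 h. Its groups did not overlap, and its log2 fold change was 4.30 ± 0.65 (SE; limma adjusted p = 0.0031).

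The largest ratio of means among the abundant rises, 60.1-fold, belonged to An07g07940. It had 326 and 319 reads in the 66 h libraries, against 4, 7 and 1 reads in the 18 h libraries. An02g10260 followed at 35.4-fold, with 1053 and 1039 FPKM at 66 h, against 32.1, 27.5 and 28.9 FPKM at 18 h. In this gene the replicates of each time lay close together, and its log2 fold change was 5.10 ± 0.61 (SE; limma adjusted p = 0.0008). An03g06400 came next at 32.2-fold, with 1508 and 1524 FPKM at 66 h, against 36.3, 77.8 and 27.2 FPKM at 18 h. All 3 of these genes stood on at least 201 reads in each 66 h library and on at most 12 reads in each 18 h library. The other abundant rises were An01g05830 (25.3-fold between the means), An02g10420 (23.9-fold), An04g04130 (15.6-fold), An14g02450 (12.3-fold) and An12g05070 (8.60-fold). Of the 11 genes, An12g05070 lost its call without either 66 h library and in 3 of the other alternatives, with an adjusted p of up to 0.126, and An01g05830 lost it without 66 h replicate 1 (adjusted p = 0.0572).

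The steepest abundant fall was An12g01290, whose ratio of means was 695-fold. It had 67.2 and 118 FPKM at 66 h, against 58020, 69848 and 65699 FPKM at 18 h. In reads, that was 3 and 5 at 66 h, against 1969, 2209 and 1980 at 18 h. The log2 fold change of An12g01290 was -9.48 ± 0.54 (SE; limma, Benjamini-Hochberg adjusted p = 8.3e-06). An16g00100 had 81.1 and 68.5 FPKM at 66 h, against 10832, 11033 and 10932 FPKM at 18 h. Both groups were tight, and the log2 fold change of An16g00100 was -7.18 ± 0.25 (SE; limma adjusted p = 1.3e-07).

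The other abundant falls kept more of their 18 h level. An01g06160 had 40.6 and 82.7 FPKM at 66 h, against 2384, 2623 and 1848 FPKM at 18 h. An14g05180 had 259 and 156 FPKM at 66 h, against 2578, 3177 and 2559 FPKM at 18 h. An15g03820 had 254 FPKM in each 66 h library, against 2348, 2840 and 1962 FPKM at 18 h. None of the 3 came near its 18 h level in either 66 h library, and their log2 fold changes were -5.26, -3.77 and -3.21, in the same order. An04g00433 remained the highest of the 6 at 66 h, with 635 and 830.4 FPKM, against 6196, 6550.2 and 7612 FPKM at 18 h (log2 fold change -3.22 ± 0.14, SE; limma adjusted p = 8.1e-07). All 6 of these falls were called in each of the 20 alternatives tried.

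**Figure D2:**
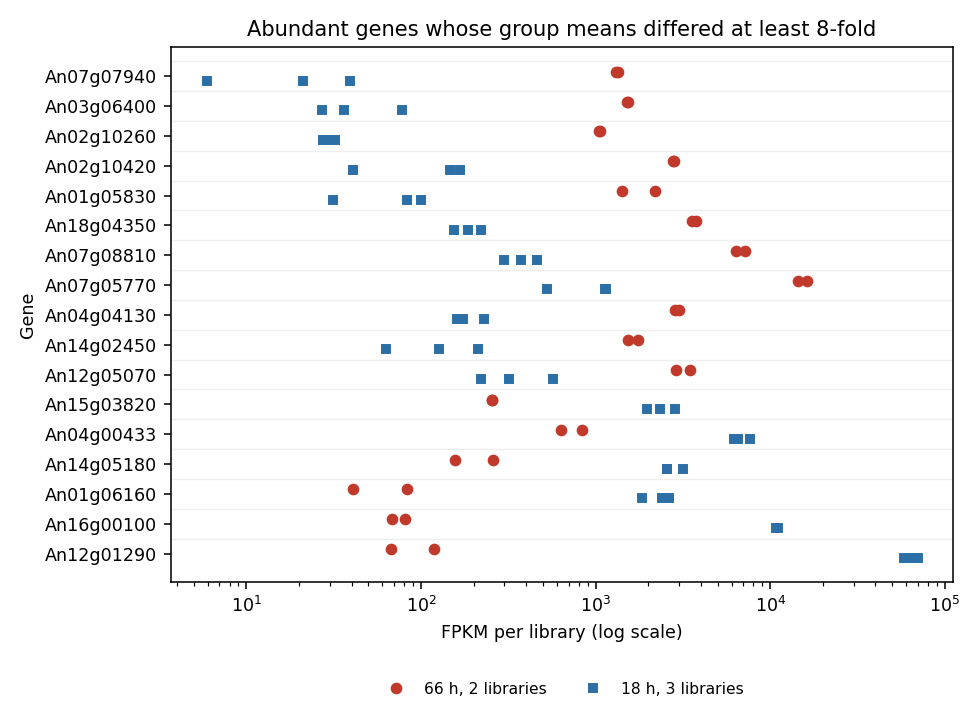
The 17 abundant genes whose group means differed at least 8-fold, 1 row per gene, with the FPKM of each library on the x axis (log scale). Red circles are the 66 h libraries and blue squares the 18 h libraries; the 11 genes that rose fill the upper rows, the 6 that fell the lower rows, and no gene has overlapping groups.

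Besides An07g05770, 5 other genes were among the 6 most abundant rises. An03g06560 had the highest mean over the 5 libraries among genes that rose, with 45328 and 42100 FPKM at 66 h, against 26091, 27718 and 24581 FPKM at 18 h. The replicates of each time lay close together, and its log2 fold change was 0.74 ± 0.07 (SE; limma adjusted p = 0.00018). An12g03030 had 33064 and 21486 FPKM at 66 h, against 4889, 5962 and 5220.2 FPKM at 18 h. The 66 h libraries differed more from each other than the 18 h libraries did, and the log2 fold change was 2.32 ± 0.30 (SE; limma adjusted p = 0.0013). An16g05680 had 28107 and 22814 FPKM at 66 h, against 4743, 4393 and 3671 FPKM at 18 h (log2 fold change 2.58 ± 0.45, SE; limma adjusted p = 0.0066). It was not called when 66 h replicate 1 was left out (adjusted p = 0.0629) or without a trend in the variance (0.077). An11g03350 was much tighter, with 7382 and 7199 FPKM at 66 h, against 1239, 1252 and 1136 FPKM at 18 h. An02g07450 had 7884 and 5965 FPKM at 66 h, against 1755, 1669 and 1824 FPKM at 18 h. Their log2 fold changes were 2.59 for An11g03350 and 1.97 for An02g07450, and both groups of libraries were apart in each gene. Without a trend in the variance, An03g06560 (limma adjusted p = 0.437), An12g03030 (0.0543) and An02g07450 (0.0562) also lost the call, while An11g03350 kept it.

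Among the most abundant falls, 4 further genes kept a large share of their level. An08g11190 had 13332 and 12614 FPKM at 66 h, against 19952, 18305 and 16529.7 FPKM at 18 h (log2 fold change -0.49; limma adjusted p = 0.0066). Its call was lost with libraries scaled to equal FPKM sums (limma adjusted p = 0.0605), without a trend in the variance (0.609) and without 66 h replicate 2. An01g14075 had 6140 and 7813 FPKM at 66 h, against 12970, 10714 and 13914 FPKM at 18 h, and fell by 0.85 on the log2 scale. An04g02590 fell by 0.62, with 5157 and 4716 FPKM at 66 h, against 6854, 7467 and 8586 FPKM at 18 h, and An16g04190 fell by 0.94. Without a trend in the variance, An01g14075, An04g02590 and An16g04190 lost the call (limma adjusted p = 0.399, 0.525 and 0.287, in this order). An01g14075 also lost it without 66 h replicate 1, and An04g02590 without 66 h replicate 2. The most abundant gene not called was An02g11627, with 24944 and 30359 FPKM at 66 h, against 35448, 34993 and 46435 FPKM at 18 h. Its groups did not overlap, its log2 fold change was -0.49 with a 95% interval of -0.78 to -0.20, and its adjusted p was 0.0568 in limma.

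Of the 10 largest falls among genes with a mean of at least 30 FPKM, 8 were listed at 0 in both 66 h libraries, and of the 10 largest rises, 9 were listed at 0 in all 18 h libraries. At this level, 71 genes were listed at 0 in both 66 h libraries but not in all 18 h libraries, and 34 of them were called lower at 66 h. Another 37 genes were listed at 0 in all 18 h libraries but not in both 66 h libraries, and 17 of them were called higher. Over all genes at this level, 8.22% were called lower and 6.55% higher. Both sets were picked on the values that the contrast tests, so the direction of their calls was fixed by the choice and the counts are no test. No fold is given for a gene against a group at 0, since the size of such a fold is set by the value added before the logarithm.

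An15g02040 had 305 and 597 FPKM at 66 h and was listed at 0 in every 18 h library, with 14 and 26 reads at 66 h (limma adjusted p = 0.011). An16g05240 had 277 and 266 FPKM at 66 h and was listed at 0 in every 18 h library, with 22 and 20 reads at 66 h (limma adjusted p = 1.3e-05). An10g01040 had 292 and 232 FPKM at 66 h and was likewise listed at 0 at 18 h, with 16 and 12 reads at 66 h. These 3 genes were thus seen only in one of the groups, at a moderate level. Further large rises listed at 0 in all 18 h libraries were An15g06100, An01g08070, An13g01690, An14g00290, An07g07900 and An02g00060. Of the 10 largest rises, 4 were called in every alternative tried (An16g05240, An10g01040, An07g07900 and An01g03520), and the others lost the call without at least one 66 h library.

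The large falls mirrored these levels. An14g06850 was listed at 0 in both 66 h libraries and had 229, 328 and 329.7 FPKM at 18 h, where it had 18, 24 and 23 reads (limma adjusted p = 1.3e-05). An01g14390 was listed at 0 in both 66 h libraries and had 266, 201 and 176 FPKM at 18 h, on 92, 65 and 54 reads (limma adjusted p = 0.0052). An01g07740 and An04g08190 were also listed at 0 in both 66 h libraries, with 304.9, 166 and 284 FPKM for An01g07740 and 190.1, 274 and 249 FPKM for An04g08190 at 18 h. No read of these 4 genes was recovered at 66 h, and each had at least 12 reads in every 18 h library. Also listed at 0 in both 66 h libraries were An09g05020, An14g06920, An11g01050 and An14g05310. Of the 10 largest falls, An14g06920 alone lost its call in any alternative (adjusted p up to 0.0976).

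Genes with a symbol allowed a reading by role, and few of them were called. Of 91 such genes tested, 3 were called, or 3.30%, against 6.04% of all genes tested, and 13 had an unadjusted p under 0.05. All 3 were among the 40 with a mean of at least 30 FPKM, a level at which 14.8% of all genes were called. The difference between these shares was not tested. A gene not called may still have changed, since many of the intervals are wide. The lists below were matched by symbol, so each holds a small part of its pathway. For all genes tested the median log2 fold change was 0.

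Of 5 genes listed under starch degradation, 1 rose and 4 were not called. The list holds the regulator gene amyR and counts amyA at 2 loci, so its median log2 fold change of -0.25 is the amyA value. The glucoamylase gene glaA (An03g06550) had 3099 and 3259.8 FPKM at 66 h, against 2187, 2089 and 2325 FPKM at 18 h. The groups did not overlap, and glaA rose by a log2 fold change of 0.53 ± 0.13 (SE; limma adjusted p = 0.0359). Its call was lost in 9 of 20 alternatives, among them leaving out either 66 h library and each 18 h library, with adjusted p-values of 0.0109 to 0.579 over all of them. The α-amylase gene amyA, at 2 loci (An12g06930 and An05g02100) with identical values that cannot be told apart, had 786 and 852 FPKM at 66 h, against 1035, 955 and 939 FPKM at 18 h. Its log2 fold change was -0.25 with a 95% interval of -0.63 to 0.12, which does not hold a 2-fold change either way. The α-glucosidase gene aglU had 32.0 and 33.8 FPKM at 66 h, against 79.4, 90.0 and 78.9 FPKM at 18 h, without overlap and with an adjusted p of 0.222 in limma.

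Of 10 genes listed under endoplasmic reticulum folding and secretion, 2 fell and none rose. The median log2 fold change of the list was 1.59, with a mean under 30 FPKM in 7 of the 10 members. Members were matched by symbol, and whether each of them, sspB included, acts in that compartment was not checked. The chaperone gene bipA had 179 and 249.7 FPKM at 66 h, against 441, 443 and 629 FPKM at 18 h. Each 66 h library lay below each 18 h library, and bipA fell by 1.23 ± 0.26 on the log2 scale (SE; limma adjusted p = 0.018). The call was lost in 4 of 20 alternatives: leaving out 66 h replicate 1 ended it (adjusted p = 0.169), as did a fit of only the 5 libraries of both times (0.0524) and one without a trend in the variance (0.212). The other fall was sspB, with 372 and 361 FPKM at 66 h, against 1100.3, 1053 and 1203 FPKM at 18 h (log2 fold change -1.61 ± 0.20, SE; limma adjusted p = 0.0011), and its call was lost only without a trend in the variance (0.0967). The protein disulfide isomerase gene pdiA, which helps form disulfide bonds, had 34.5 and 29.1 FPKM at 66 h, against 0, 19.4 and 10.2 FPKM at 18 h, and was not called.

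No gene of central carbon metabolism or respiration with a symbol was called. The 8 tested genes listed under glycolysis and pentose phosphate had a median log2 fold change of 0.41. It was -0.57 for 4 genes of organic acid metabolism and 0.06 for 3 respiratory genes. The first list also held the trehalose synthesis gene tpsB and the alcohol dehydrogenase gene adhA. It left out the hexokinase gene hxk (log2 fold change -0.51), so its median does not stand for the pathway. The pyruvate kinase gene pkiA had 1364 and 1469 FPKM at 66 h, against 1912, 2404 and 1446 FPKM at 18 h. These groups overlapped, and the 95% interval of the log2 fold change ran from -0.85 to 0.03. The glyceraldehyde-3-phosphate dehydrogenase gene gpdA had 408 FPKM in each 66 h library, against 451, 409 and 459 FPKM at 18 h. Its log2 fold change was -0.11 with a 95% interval of -0.65 to 0.44, and its sign turned under both rescalings of the libraries. The alternative oxidase gene aox1, which passes electrons to oxygen past the cytochrome chain, had 431 and 477 FPKM at 66 h, against 349.8, 535 and 439 FPKM at 18 h. Those groups overlapped, with a 95% interval of the log2 fold change of -0.65 to 0.77, and its sign turned without 18 h replicate 1 or 66 h replicate 2. The pyruvate carboxylase gene pyc had 23.5 and 12.4 FPKM at 66 h, against 38.5, 53.6 and 56.4 FPKM at 18 h, with an adjusted p of 0.256 in limma.

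The remaining lists held no call. They covered 14 tested genes of plant cell wall degradation (median log2 fold change -0.19), 5 of secreted proteases and their regulator (0.43), 3 of nitrogen assimilation (-0.05), 2 of carbon and pH regulation (1.34), 1 of oxidative stress (1.59) and 1 of phosphatases and phytases (-1.35). The endoglucanase gene eglB had 185 and 184 FPKM at 66 h, against 100.1, 61.5 and 113 FPKM at 18 h. Its groups were apart, but its 95% interval on the log2 scale was -0.13 to 2.23. PrtT, the regulator of extracellular protease genes, had 437 and 288 FPKM at 66 h, against 216, 343 and 243 FPKM at 18 h, with overlap. The nitrate reductase gene niaD had 365 and 304 FPKM at 66 h, against 234, 382 and 269.5 FPKM at 18 h, also with overlap.

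Outside the lists, 8 genes with a symbol had an unadjusted p under 0.05 without being called, 6 with a lower and 2 with a higher mean at 66 h. The invertase gene suc1 had 72.2 and 6.35 FPKM at 66 h, against 237, 186 and 107 FPKM at 18 h (limma adjusted p = 0.0659). The cyclophilin gene cypA had 118 and 0 FPKM at 66 h, against 155, 215 and 174 FPKM at 18 h (limma adjusted p = 0.146). The ribosomal protein gene rpl15 had 201 and 96.5 FPKM at 66 h, against 336, 336 and 296 FPKM at 18 h (limma adjusted p = 0.14). In these 3 genes the groups were apart, and the 66 h libraries differed widely from each other. The other lower means were those of trpC, argB and pkcA, with adjusted p-values of 0.219, 0.244 and 0.228 in limma, in the same order. On the higher side, the cytochrome c gene cyc had 211 and 74.2 FPKM at 66 h, against 0, 50.2 and 0 FPKM at 18 h (limma adjusted p = 0.221). The gene proctase-A had 64.5 and 13.6 FPKM at 66 h and was listed at 0 in every 18 h library (limma adjusted p = 0.185). These 8 genes fall outside the naming rule and were chosen after their values were seen, as were aglU, pdiA, pyc and eglB.

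**Figure D3:**
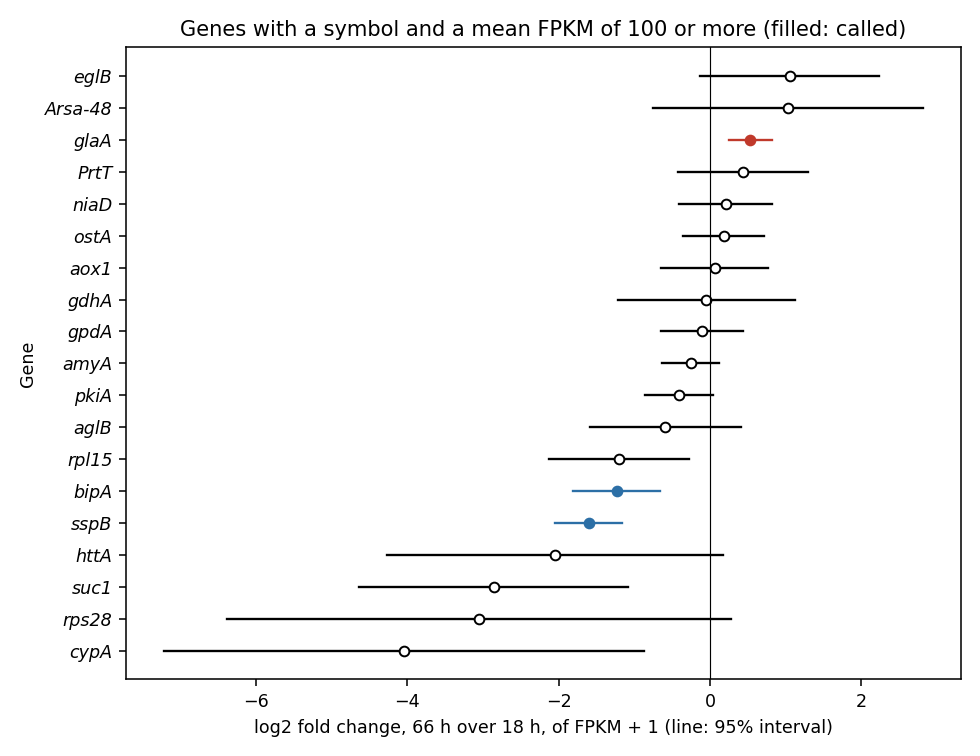
Log2 fold change of FPKM + 1, 66 h over 18 h (x axis), for genes with a symbol and a mean of at least 100 FPKM (rows), with the 95% interval as a line. Filled points were called, namely glaA (0.53), bipA (-1.23) and sspB (-1.61), and the open points were not; amyA is drawn once for its 2 loci.

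Some called genes lay side by side in the annotation. Counting genes listed next to each other on a contig, 26 runs of at least 2 called genes moved in the same direction, 14 up and 12 down, and held 54 genes, or 10.3% of those called. This share was not set against one for neighbours in general, so it is no evidence of clustering. Some runs also stood on few reads: An12g09330 and An18g01620 each had 1 read in each 66 h library and 0 in every 18 h library. Only 2 runs reached 3 genes, and both fell. In An09g00540, An09g00550 and An09g00560 every gene was listed at 0 in both 66 h libraries. At 18 h, An09g00540 had 117, 126 and 105 FPKM, An09g00550 had 27.9, 37.3 and 31.4 FPKM and An09g00560 had 107, 48.0 and 40.3 FPKM. In reads, these were 5, 5 and 4 for An09g00540, 4, 5 and 4 for An09g00550 and 12, 5 and 4 for An09g00560. In An08g10860, An08g10870 and An08g10880 every gene was also listed at 0 at 66 h. At 18 h, An08g10870 was the highest of them with 75.9, 112 and 149.5 FPKM, and its read numbers were not recovered. An08g10860 had 8, 12 and 7 reads and An08g10880 had 4, 4 and 7 reads in the 18 h libraries. Of these 6 genes, only An09g00540 and An08g10870 were called in every alternative. The other 4 lost the call without either 66 h library and had a mean under 30 FPKM over the 11 libraries.

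A few pairs of neighbours were chosen for description after their values were seen. The glucoamylase gene glaA and An03g06560 were such a pair, and both were higher at 66 h than at 18 h, though glaA was higher still at 24 h and 42 h. An03g06400, described above, lay beside An03g06410, which had 84.3 and 89.0 FPKM at 66 h and was listed at 0 in every 18 h library. An08g06990 had 1653 and 1391 FPKM at 66 h, against 364, 277 and 205 FPKM at 18 h, and its neighbour An08g07000 had 157 and 276 FPKM at 66 h, against 34.3, 0 and 0 FPKM at 18 h. In the last 2 pairs the neighbour was far lower than the abundant gene in every library. These lower neighbours were the less certain calls, with An03g06410 called in 18 of 20 alternatives and An08g07000 in 12. Among the falls, An11g07340 had 779 and 668 FPKM at 66 h, against 2160.4, 2369 and 2473 FPKM at 18 h. Its neighbour An11g07350 had 276 and 258 FPKM at 66 h, against 933, 866 and 857 FPKM at 18 h. Their log2 fold changes were close, at -1.69 ± 0.14 for An11g07340 and -1.72 ± 0.19 for An11g07350 (SE). The annotated spans of neighbours in a run did not overlap in any case, and the strand setting of the counting was not stated.

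Levels at the times between place these changes within the culture. Of the 192 rises with a mean of at least 30 FPKM, the 42 h mean on the log2 scale was nearer the 66 h mean than the 18 h mean in 182, and the 24 h mean in 52. On the way between the 18 h and the 66 h mean, the median gene had covered 32.1% at 24 h and 90.8% at 42 h. Of the 241 falls, the 42 h mean was nearer the 66 h mean in 193 and the 24 h mean in 44, and the median gene had covered 5.3% of the way at 24 h and 76.5% at 42 h. In 94 of the falls the 24 h mean stood above the 18 h mean, and in 25 of the rises it stood below. Among the 24 h libraries, replicate 1 stood apart: it was the one highest in 139 of the 192 rises and the one lowest in 148 of the 241 falls. Without it, the 24 h mean was nearer the 66 h mean in 44 rises and 39 falls, the median gene had covered 22.3% of the way among rises and 1.5% among falls, and the 24 h mean stood below the 18 h mean in 45 rises and above it in 111 falls. Leaving out this library was chosen after seeing the data. These are descriptions with no test, since the genes were chosen on 18 h and 66 h levels that enter them.

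Single genes took different courses. An18g04350 averaged 186 FPKM at 18 h, 485 FPKM at 24 h, 2776 FPKM at 42 h and 3662 FPKM at 66 h. Its 24 h mean came mostly from 1 library, since 24 h replicate 1 had 1122 FPKM and the other 24 h libraries had 176 and 155 FPKM. An03g06400 showed the same split at 24 h, with 521, 93.3 and 73.3 FPKM, and 24 h replicate 1 was the highest 24 h library in all 11 abundant rises described above. An12g03030 averaged 5357 FPKM at 18 h, 9044 FPKM at 24 h, 9292 FPKM at 42 h and 27275 FPKM at 66 h, so that its largest step came last. For that step the log2 fold change, 66 h over 42 h, was 1.53 with an adjusted p of 0.0678 in limma.

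Falls also differed in their timing. An12g01290 averaged 64522 FPKM at 18 h, 39522 FPKM at 24 h, 111 FPKM at 42 h and 92.8 FPKM at 66 h. An16g06900 averaged 8333 FPKM at 18 h, 1535 FPKM at 24 h, 2028 FPKM at 42 h and 2431 FPKM at 66 h, so that its lowest level came at 24 h. An11g07340 averaged 2334 FPKM at 18 h, 4769 FPKM at 24 h, 988 FPKM at 42 h and 723 FPKM at 66 h, with its peak at 24 h. An16g03870, which fell, also stood highest at 24 h, with means of 4911, 8223, 3518 and 2579 FPKM in the order of time. An04g06550, which rose, stood lowest at 24 h, with means of 674, 329, 1039 and 1449 FPKM in that order. These last genes were chosen to show courses after their values were seen.

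Few genes separated the late from the middle limited phase. Between 66 h and 42 h, 37 of 8693 genes were called, or 0.426%, and 12 of 2933 genes with a mean of at least 30 FPKM, or 0.409%, with 1 higher (0.0341%) and 11 lower (0.375%) at 66 h. At this level, 9 genes were listed at 0 in both 66 h libraries and above 0 in each of the other 9 libraries, and 8 of them were called lower at 66 h than at 42 h. This set was picked on values that the contrast tests, so the direction of the calls was fixed by the choice and the count is no test. Of these 8 genes, the 4 with the lowest adjusted p, chosen after their values were seen, were An04g00650, An14g06850, An05g02290 and An12g09280. An04g00650 had 78.2, 153 and 77.5 FPKM at 42 h (limma adjusted p = 0.00082, 66 h against 42 h). An05g02290 had 162, 52.6 and 268 FPKM at 42 h (limma adjusted p = 0.0049). An12g09280 had 50.1, 97.2 and 25.0 FPKM at 42 h (limma adjusted p = 0.016). That call stood on few reads, since the gene had only 7, 3 and 4 reads at 18 h, at a higher mean FPKM than at 42 h. For An04g00650 and An05g02290 no read numbers were recovered, and their values may stand on few reads as well. Of these 4 genes, An12g09280 and An14g06850 were already lower at 42 h than at 18 h by their means, at 57.4 against 140 FPKM and 36.6 against 296 FPKM. Both comparisons share the 66 h libraries, so their results are not independent.

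**Figure D4:**
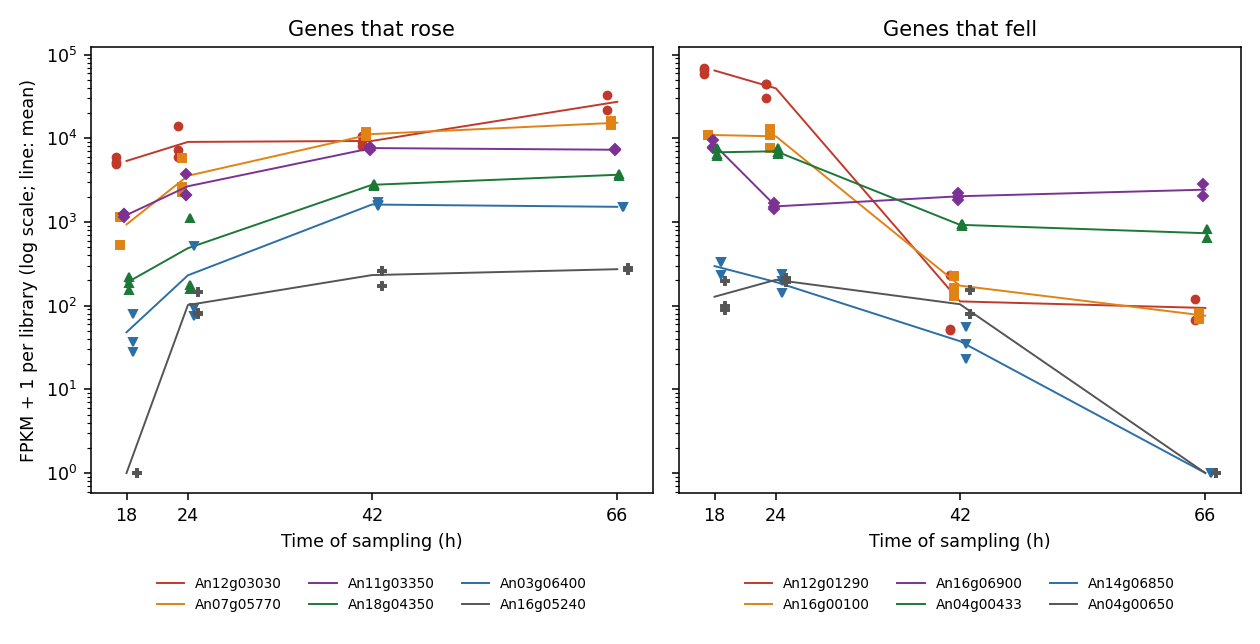
FPKM + 1 of each library (points, log scale) and the mean of each time (lines) against the sampling time in hours, for 6 genes that rose (left) and 6 that fell (right) between 18 h and 66 h. The steepest part of An12g01290 and An16g00100 lies between 24 and 42 h; An12g03030 climbs most after 42 h, An16g06900 is lowest at 24 h, and An14g06850 and An04g00650 end at a listed value of 0.

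Only a part of the abundant genes stayed within 2-fold of their 18 h level. Of 155 genes with a mean of at least 1000 FPKM over the 5 libraries, 82 were called, 26 higher and 56 lower, and 51 of these changed at least 2-fold. Of all genes tested at any level, 6.04% were called, and the share climbed with the level. For 59 of the 155 genes the 95% interval of the log2 fold change lay between -1 and 1, so that a 2-fold change lay outside it, and 51 of these were among the 73 not called. In 12 genes not called, it lay between -0.5 and 0.5.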

How the data were processed

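Total RNA from frozen broth was made into Illumina libraries, per the labels' protocols. The authors deposited FPKM values, 1 per gene and library, for 10445 genes. RSEM was used, per the submitters' processing notes. Which version, aligner, build and scaling between libraries were used was not given in the sources used here. FPKM divides by the mapped total, so a few abundant transcripts can shift all others.

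Tests were run with limma 3.58.1 (R 4.3.3) on log2(FPKM + 1), after a filter of at least 1 FPKM in at least 2 of 11 libraries (8693 genes). One fit held a mean per phase and all 11 libraries, with an empirical Bayes variance trended on the level, and p-values were adjusted by Benjamini-Hochberg over all genes tested. It was also run on simulated reads, with changes planted only in genes with a mean of at least 30 FPKM and a fixed spread. That run does not speak for lower levels or for the spread in the real libraries. Read numbers were recovered from genes whose low values fell on whole multiples of a common unit (rounding tolerance 0.06) which held for 87.5% of 8697 genes above 0 in at least 2 libraries. At least 60.1% of these genes had 0 or 1 read in each library.

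Symbols were looked up in the RefSeq genes of assembly ASM285v2 (10417 identifiers matched, 28 did not), used for names and neighbours only. The gene lists and compared groups were chosen with earlier results of these data known. Named were list members that were called or reached 300 FPKM, called genes with a symbol, the 10 largest rises and falls at 30 FPKM or more without overlap, the 6 most abundant rises and falls, the 5 most abundant genes, and runs of at least 3 called neighbours; exceptions are stated. For genes listed at 0 in one group, counts are given and few are named. Lists for cell wall synthesis and sporulation matched no gene. Alternatives were other pseudocounts, filters, scalings and variance models, the 5 libraries alone, a replicate block and leaving out each library.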

Additional observations from a re-analysis of the deposited data

How the results depend on the processing

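Of 20 alternatives, pseudocounts of 0.1 and 10, other filters, both rescalings and leaving out any library before 66 h kept the number of genes called within 1.5 times of 525 (all genes) and 433 (mean of at least 30 FPKM). With only the 5 libraries of both times, 787 genes were called, 435 higher and 352 lower, of 6898 tested, and 443 at 30 FPKM or more. Without a trend in the variance, 251 and 138 genes were called; the cause was not tested. Leaving out each library in turn gave 220 to 570 genes called and 213 to 459 at 30 FPKM or more, with the lowest counts where 1 library stood for 66 h, and so fewer samples.

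The replicate number as a block gave 362 genes called and 308 at 30 FPKM or more; the labels do not say what a number marks, and the deviations of same-numbered 66 h and 18 h libraries correlated at 0.024 and 0.002. Of 65 named genes called, 33 were called under every alternative, 7 lost the call under the block (among them glaA, with an adjusted p of 0.0688, and bipA, 0.0515), 20 without a trend, 22 without 66 h replicate 1 and 20 without 66 h replicate 2. The sign turned only for 2 genes that were not called: gpdA An16g01830, at 0.035 with equal FPKM sums and 0.0027 with median-of-ratios scaling, and aox1 An11g04810, at -0.063 with the replicate block and -0.097 to 0.209 when single libraries were left out. The median log2 fold change of genes at 30 FPKM or more was -0.10, and 0.03 and 0.0027 under these scalings. Under 30 FPKM most genes rest on 0 to 2 reads a library, so changes there could be missed, and a call can stand on single reads. Of the genes called there, 18 had 1 read in each 66 h library and 0 in the other 9.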
